A study of Nematostella vectensis with 17 samples.

Results

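The splice-blocking brachyury morpholino was compared with a control morpholino in whole gastrula embryos of the sea anemone Nematostella vectensis, in 8 RNA-seq libraries out of the 17 samples of the series. The 4 splice libraries and 4 control libraries were taken by the morpholino named in their labels, and only rows for gene models (identifiers that start with NVE) were read. The remaining RNA-seq libraries, 6 from embryos injected with a translation-blocking brachyury morpholino, entered the fit of the spread. All embryos were raised at 21 °C, and polyA RNA of whole embryos was read as 50 bp single ends. Per the labels, each brachyury morpholino was injected at 500 µM in 3 to 5 pl and the replicates were biological. The labels record no concentration or volume for the control morpholino, so unequal doses and an effect of the splice morpholino cannot be told apart. The protocol states 6 replicates per group, and the 4 splice and 4 control libraries listed were used. No strain or genotype is named in the labels.

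Brachyury is a T-box transcription factor. In Nematostella it is known for its expression around the blastopore, the opening through which gastrulation proceeds and which becomes the mouth, and in many animals brachyury and Wnt signalling are linked. Morpholinos are synthetic oligomers that pair with a chosen RNA and resist nucleases. A splice-blocking morpholino pairs with a junction of the unspliced RNA, so that the mature RNA keeps an intron or loses an exon; its effect on the target need not show in a count of reads per gene. The count table pairs no names with its identifiers. Brachyury itself was therefore not analysed here as a gene, the knockdown was not checked, and neither the Wnt and oral gene lists nor the cell type markers could be matched (0 identifiers matched the reference table). In whole embryos, fewer cells of a type and less RNA per cell cannot be told apart.

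The sequence of the splice-blocking morpholino is shown first. Of the treatment that the labels specify, it alone sets the splice group apart from the translation group. Both oligomers are 25 bases long with 56% G or C. Capitals in the splice morpholino mark the arms of an inverted repeat, 6 bases each with 1 base between them, at positions 5 to 17 from the 5′ end; in the translation morpholino the longest such arms have 3 bases.
Splice-blocking morpholino: tcccTGGTTGtCAACCAtaccgtcc
Translation-blocking morpholino: TCGtcCGAgtgcatgtccgactatg
The strand that each would pair with follows, read 5′ to 3′, with each GT in capitals for the splice morpholino, the letters with which most introns begin, and ATG, the letters of a start codon, for the translation morpholino.
Complement of the splice-blocking morpholino: ggacgGTatgGTtgacaaccaggga
Complement of the translation-blocking morpholino: catagtcggacATGcactcggacga
The complement of the splice morpholino held 2 GT matches and that of the translation morpholino 1 ATG match, searched on the strand shown only. The longest run that the morpholinos share had 5 bases. These are matches of letters; which junction of brachyury the splice morpholino covers was not analysed here.

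The splice libraries were close in depth, at 14873801 to 16096648 counts, while control libraries held 15236154 to 19126076 except control library 1, with 80132810. Thinned to the shallowest of all RNA-seq libraries (12289649 counts), control libraries still detected 24541 to 24694 genes and splice libraries 24425 to 24706. The 50 most abundant genes of each library took 10.9 ± 0.438% of counts in controls and 12 ± 0.898% in splice libraries (SD, n = 4 each; exact two-sided permutation p = 0.086, 0.15 after Benjamini-Hochberg adjustment over 4 library measures). The effective number of genes, the exponential of the Shannon entropy of the gene shares, was 5796 ± 295 in controls and 5342 ± 427 in splice libraries (exact permutation p = 0.11, adjusted 0.15). The smallest p that 4 against 4 allows is 0.029 before adjustment. With adjustment over 4 measures, 1 measure alone could not have reached an adjusted p under 0.05. Neither measure passed the test, and a difference between the groups was not excluded.

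Splice and control libraries grouped by morpholino over the tested genes, with overlapping ranges of distance. Levels are given in CPM, in which counts are set to a common library total, here scaled between libraries by TMM, a method that assumes most genes keep their level. The root mean square difference of log2 CPM over the 22109 genes tested was 0.38 to 0.549 between control libraries and 0.488 to 0.602 between splice libraries. Between a splice and a control library it was 0.526 to 0.808 over 16 pairs. The nearest library was of the same group for all 8. The first component of variation (40.1% of the variance) placed the splice libraries at 16.7 to 51.3 and the controls at -55.5 to -14. Among the controls, libraries 3 and 4 (title numbers 52975 and 52980) lay at -18.2 and -14, nearer to the splice libraries than libraries 1 and 2 (52964 and 52970), at -55.5 and -48.

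**Figure D1:**
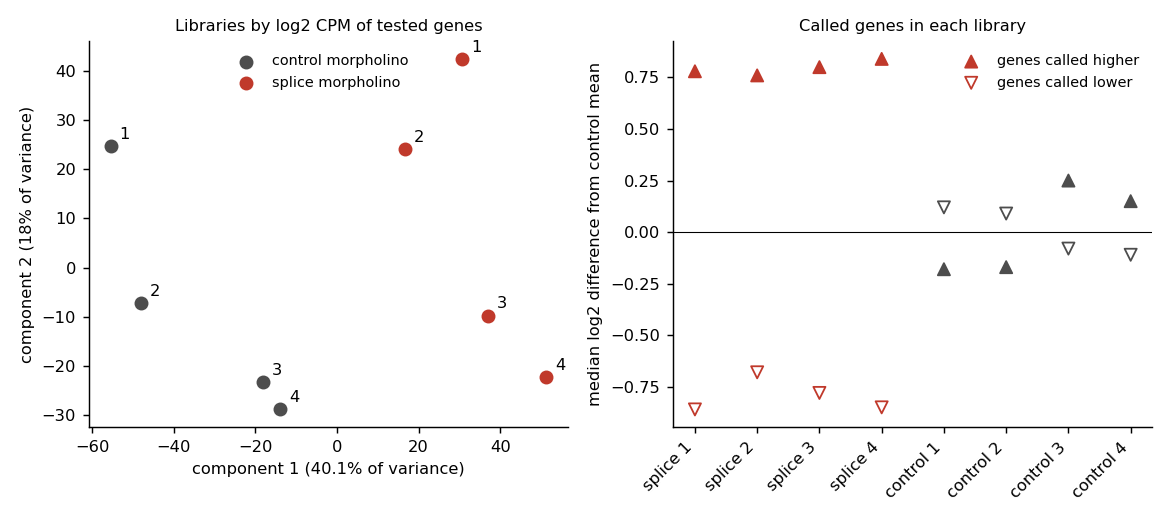
Left, the 8 libraries on the first 2 components of log2 CPM, numbered within each group (red, splice; grey, control). Right, the median log2 difference from the control mean (for a control library, from the mean of the other 3) over the genes called higher (filled triangles) and lower (open triangles). The 4 splice libraries lie at 0.76 to 0.84 and -0.86 to -0.68, and the controls between -0.18 and 0.25. The genes were called from these same libraries, so the distance of the splice medians follows from the selection.

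In embryos injected with the splice morpholino, 1272 genes were higher and 1169 were lower than in controls, by edgeR's quasi-likelihood test at an adjusted p under 0.05. These were 5.75% and 5.29% of the genes tested, together 11%. Most changes were modest. The median log2 fold change was 0.82 among the higher and -0.82 among the lower genes, and 64.8% of all called changes were within 2-fold. Over 2-fold were 447 higher and 412 lower genes (3.89% of those tested), over 4-fold 48 and 37, and over 8-fold 9 and 3. For 103 higher and 84 lower genes the whole 95% interval lay beyond 2-fold.

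Scaling and the choice of libraries bear on the balance of directions. Higher genes made up 52.1% of the calls with TMM and 37.8% when libraries were scaled by their totals alone, and the median log2 fold change over all tested genes went from 0 to -0.08.

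The genes that were not called were bounded to different degrees. Of these 19668 genes, 15492 (78.8%) had a 95% interval that stayed within a 2-fold change in both directions, and 8357 (42.5%) one that stayed within 1.5-fold. For the other 4176 genes the interval reached a 2-fold change, so a change of that size was not excluded. These intervals are per gene and not adjusted for the number of genes.

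Every splice library lay above every control library in 1756 genes (7.94% of those tested) and below every one in 1977 (8.94%). Of these, 1064 and 1059 were also called, which was 87% of all calls. The remaining 318 called genes overlapped between the groups in at least 1 library. Among the genes without overlap, called or not, a gap of more than 1 log2 unit separated the nearest libraries of the groups in some. These were 49 of the 1756 that lay above and 57 of the 1977 that lay below.

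**Figure D2:**
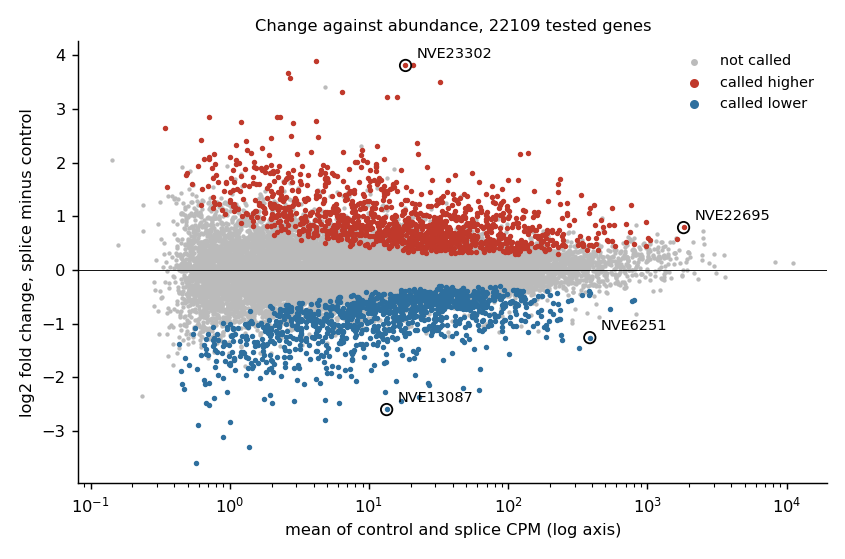
Log2 fold change, splice minus control, against the mean of the control and splice levels in CPM (log axis), 1 point per tested gene, with genes called higher in red and lower in blue; the genes described one by one are circled. The called changes narrow from low to high abundance, and NVE22695 lies at the abundant end with a change of 0.79.

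Only 2 identifiers per direction are described one by one, since no names are paired with them. In each direction these are the called gene with the greatest fold at a mean of at least 5 CPM and the one with the greatest difference in CPM, both among genes without overlap between the groups. The lack of overlap in each gene below is therefore part of the choice. The choice also used the splice libraries, so the tests of these libraries against control or translation libraries are a description only.

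NVE23302 had the greatest fold among the higher genes that met the rule. It stood at 1.31, 3.27, 2.95 and 2.63 CPM in control libraries 1 to 4, and at 47.2, 8.64, 22.2 and 58.2 CPM in splice libraries 1 to 4. The lowest splice library was above the highest control, but the splice libraries differed widely among themselves. Its mean went from 2.54 ± 0.86 to 34.1 ± 22.7 CPM (SD, n = 4 each), a log2 fold change of 3.81 ± 0.84 (SE, edgeR adjusted p = 0.0081). For comparison with the named genes' other values, the same fit called 20.1% of all tested genes for translation minus control and 12.8% for splice minus translation. With the translation morpholino the 6 libraries of NVE23302 spanned 2.91 to 63.7 CPM, also a rise against control (log2 fold change 2.86 ± 0.79, edgeR adjusted p = 0.018). Translation library 4 held the 63.7 CPM, and without it that log2 fold change was 1.81; without control library 1 it was 2.58 and no longer called, at an edgeR adjusted p of 0.07 (range 0.01 to 0.07 when each library was left out in turn). The direct difference between the morpholinos did not pass the test (log2 difference 0.95 ± 0.66, edgeR adjusted p = 0.36).

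NVE22695 gained the most CPM of the higher genes. It ranked 45 in abundance among the tested genes in controls, where libraries 1 to 4 held 1087, 1020, 1839 and 1386 CPM. Splice libraries 1 to 4 held 2203, 2251, 2139 and 2639 CPM. The groups did not overlap, and control library 3 came closest to the splice libraries. The mean went from 1333 ± 373 to 2308 ± 225 CPM (SD, n = 4 each), a 1.73-fold rise with a log2 fold change of 0.79 ± 0.17 (SE, edgeR adjusted p = 0.0062). A 1.5-fold minimum change in the test ended the call (edgeR adjusted p = 0.62, with 0.00012 to 0.62 over all alternatives). With the translation morpholino its level was 1958 ± 217 CPM (SD, n = 6), also above control (log2 fold change 0.56 ± 0.15, edgeR adjusted p = 0.019), a call lost without control library 1 or 2 (edgeR adjusted p = 0.07 and 0.066, with 0.0019 to 0.07 over all libraries left out). The direct difference was 0.24 ± 0.15 (edgeR adjusted p = 0.32).

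NVE13087 had the greatest fold among the lower genes that met the rule. Control libraries 1 to 4 held 29.1, 29.9, 13.6 and 19.6 CPM, and splice libraries 1 to 4 held 3.55, 5.56, 3.93 and 2.2 CPM. Control libraries 3 and 4 were the lowest of their group, above every splice library by the rule of choice. It was 6.04-fold lower with the splice morpholino, with a log2 fold change of -2.6 ± 0.35 (SE, edgeR adjusted p = 0.00023). The translation morpholino gave 8.44 ± 3.34 CPM (SD, n = 6), between 3.81 ± 1.38 with the splice morpholino (SD, n = 4) and 23 ± 7.83 in controls (SD, n = 4). This was also below control, by a log2 fold change of -1.46 ± 0.29 (edgeR adjusted p = 0.0028). The level was lower with the splice than with the translation morpholino, by a log2 difference of -1.13 ± 0.33 (edgeR adjusted p = 0.034).

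NVE6251 lost the most CPM of the lower genes, and its libraries were tight. It held 576, 589, 554 and 459 CPM in control libraries 1 to 4 and 249, 224, 225 and 211 CPM in splice libraries 1 to 4. Every splice library was below the lowest control, and the mean went from 545 ± 58.8 to 227 ± 16.1 CPM (SD, n = 4 each). The log2 fold change was -1.26 ± 0.13 (SE, edgeR adjusted p = 2.2e-05). With the translation morpholino the 6 libraries held 426 to 578 CPM, against control by a log2 fold change of -0.15 ± 0.11 that did not pass the test (edgeR adjusted p = 0.38). The direct difference, splice minus translation, was -1.11 ± 0.12 (edgeR adjusted p = 4.2e-05).

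**Figure D3:**
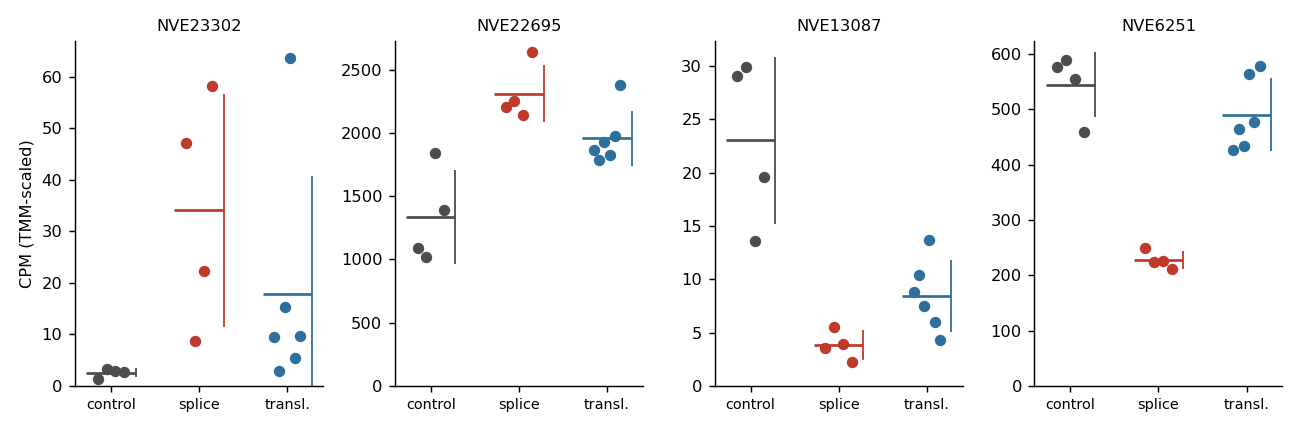
TMM-scaled CPM of 4 genes in every library (points; 4 control, 4 splice, 6 translation), with the group mean (horizontal line) and SD (vertical line, cut at 0). By the rule of choice, splice libraries lie above all controls for NVE23302 and NVE22695 and below all controls for NVE13087 and NVE6251. For NVE6251 the translation libraries lie at 426 to 578 CPM.

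Over all called genes, the translation morpholino gave smaller medians. Genes higher with the splice morpholino had a median log2 fold change of 0.82 with it and 0.63 with the translation morpholino, and genes lower with it -0.82 and -0.4. The genes were selected on the splice libraries and both comparisons use the same 4 controls, so the medians are set side by side as a description only.

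Calls were found at every level of abundance. For this, 10 classes of equal size were formed from the mean CPM over the 8 libraries. In the lowest class, with at most 1.2 CPM, 5.38% of genes were called, and 99.2% of those calls were over 2-fold. From the seventh class up, 12.3 to 14.4% were called, with 12.9 to 17.7% of the calls over 2-fold. The median standard error of the log2 fold change was 0.39 in the lowest class and 0.14 in the highest, and the median absolute log2 fold change of the calls was 1.57 and 0.61.

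Direction varied with abundance as well. In the highest class (91.5 CPM and above) 186 genes were higher and 85 lower, which made 68.6% of its calls higher, against 41.2% in the lowest class (49 and 70). The median log2 fold change over all genes of the class, called or not, was 0.07 in the highest and -0.04 in the lowest. In counts as deposited, the genes called higher took 4.94 to 5.91% of a control library and 8.25 to 8.64% of a splice library. The genes called lower took 4.4 to 5.19% and 2.48 to 3.07%. The shares describe genes selected on these libraries.

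**Figure D4:**
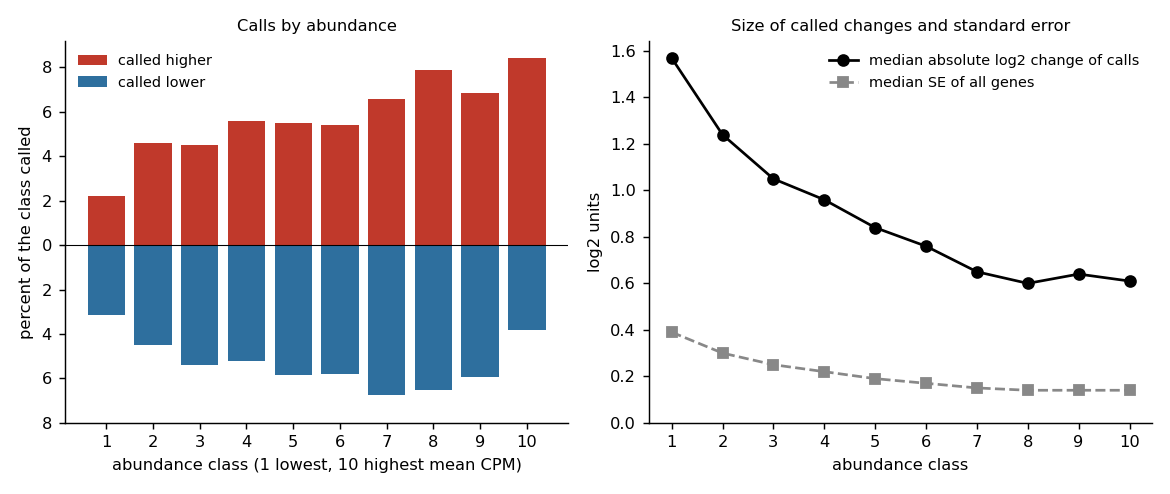
Left, the percent of each of 10 abundance classes called higher (red, upward) and lower (blue, downward). Right, the median absolute log2 fold change of the called genes (circles) and the median standard error of all genes (squares), which go from 1.57 and 0.39 in the lowest class to 0.61 and 0.14 in the highest.

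Well-expressed genes were taken by their mean over the 8 libraries, so that both groups count alike. Of 12017 genes with a mean of at least 10 CPM, 11 were called over 4-fold higher and 9 over 4-fold lower. Over all 22109 tested genes these counts were 48 and 37. Of 2006 genes with at least 100 CPM, 166 were higher and 75 lower, 27 and 13 of them over 2-fold. Over all 22109 tested genes 1272 were higher and 1169 lower, 447 and 412 of them over 2-fold (3.89% of those tested). With at least 100 CPM, 12% of genes were called in either direction, near the 11% of all tested genes. The balance differed, with more higher than lower genes at that level. The sets differ in size, so each count is to be read with the number of genes in its set. Of the 50 genes most abundant in controls, a choice that uses the control level only, 2 were called, both higher, against 11% of all tested genes. The median log2 fold change of the 50 was 0.14.

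At the other end, few of the tested genes went from near-silent to expressed. Below 1 CPM in every control library were 985 tested genes, of which 68 (6.9%) were higher with the splice morpholino, near the 5.75% of all tested genes. Of the 68, 30 were above 1 CPM in every splice library. The median of those 30 was 0.562 CPM in controls and 1.88 in splice libraries, and the highest splice mean was 7.72 CPM. In the reverse direction, 910 genes lay below 1 CPM in every splice library and 84 of them (9.23%) were called lower, against 5.29% of all tested genes, 36 from above 1 CPM in every control. The median of the 36 went from 1.77 CPM in controls to 0.633 CPM in splice libraries. Both sets were formed from the libraries compared, and the low-count filter used these libraries too. A gene this low in 1 group could be tested through higher counts in another. The shares are therefore a description only, also beside those of all tested genes. No tested gene was at 0 counts in all 4 libraries of either group (0 genes).

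The called genes also differed in how much they varied within a group. Among 14984 tested genes with a mean of at least 5 CPM, the highest control library exceeded the lowest by more than 2-fold in 6.91%, and the highest splice library in 10.4%. Among the higher genes these shares were 14.3% in controls and 7.34% in splice libraries, and among the lower genes 3.27% and 9.35%. In each set the wider spread was in the group with the lower level. The sets were called from these same libraries, and the cause of the unequal spread was not tested. Over all tested genes the median SD of log2 CPM was 0.22 in controls and 0.27 in splice libraries, with 64% of genes more variable in the latter.

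The control libraries differed among themselves in the called genes. Differences were taken against the mean of the other 3 controls. Over the genes called higher, the median log2 difference was -0.18 and -0.17 in control libraries 1 and 2, and 0.25 and 0.15 in control libraries 3 and 4. For the genes called lower it was 0.12 and 0.09, then -0.08 and -0.11. The splice medians, against the mean of all 4 controls, were 0.76 to 0.84 for the genes called higher and -0.86 to -0.68 for those called lower. Control libraries 3 and 4 thus stood nearer to the splice libraries in both sets. Both sets were called from these same libraries, so the distance of the splice medians follows from the selection. What the title number records is not stated in the labels. With the number as a linear covariate in the fit, 1864 genes were called higher and 1543 lower. Leaving out control library 1 reduced the calls to 1272, leaving out control library 2 reduced them to 1404, and leaving out splice library 4 reduced the lower genes to 759.

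The same comparison was made within 2 parts of the title numbering, cut after 52970. The labels state no such division, and the numbers run on across the cut. It falls between control libraries 2 and 3, so it also parts the controls that differed in the called genes. Libraries numbered up to 52970 (2 control, 3 translation, 3 splice) gave 2517 called genes by edgeR. With 1 of these 3 splice libraries kept at a time, edgeR called 1547 to 2736 genes. In the later libraries (2 control, 3 translation, 1 splice) edgeR called 0 genes, limma-voom 0 and DESeq2 147. Before adjustment, p was under 0.05 for 1683 genes in edgeR. The spread of the lone splice library there was taken to equal that of the other groups. The log2 fold changes of the 4 named genes there were 4.38 for NVE23302, 0.71 for NVE22695, -2.92 for NVE13087 and -1.27 for NVE6251. The direction of these genes was fixed by their choice among genes without overlap, which used the same libraries.

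To read the calls in libraries that did not choose them, 1 splice and 1 control library were left out together, genes were called from the rest, and the pair left out was then compared. This was done for all 16 pairs. Between 880 and 2418 genes were called, and 78 to 99.7% of them (median 96.7%) had the same direction in the pair left out. Over all tested genes, called or not, 57 to 74.7% did. The median log2 difference in the pair left out was 0.37 to 1.15 for genes called higher and -1.13 to -0.4 for genes called lower, where the fit from the rest gave 0.91 to 1.05 and -1.04 to -0.91. Pairs with control library 1 or 2 showed 95.7 to 99.7% with the same direction, and those with control library 3 or 4 showed 78 to 97.6%. No test goes with these shares, since the pairs use the same libraries repeatedly and genes vary together.

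Called genes were followed in identifier number by a gene called in the same direction more often than tested genes in general, though most were not. Of 1116 higher genes whose next number was also tested, 144 (12.9%) were followed by another higher gene, against 5.79% of all genes in that place. Of 1032 lower genes, 137 (13.3%) were followed by another lower gene, against 5.36%. The opposite direction followed in 4.39% and 5.14%. At a distance of 2 numbers the shares in the same direction were 8.73% and 8.27%, at 5 numbers 6.04% and 5.39%, and at 100 numbers 6.54% and 4.98%.

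Runs of 3 or more consecutive numbers called in the same direction held 69 of the 1272 higher genes, in 22 runs. They held 61 of the 1169 lower genes, in 17 runs. The longest runs had 4 higher and 7 lower genes. Whether consecutive numbers lie next to each other in the genome is not stated in the files. How reads were assigned to overlapping models or near-identical copies is not given in the sources used here, and its part in these shares was not tested.

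**Figure D5:**
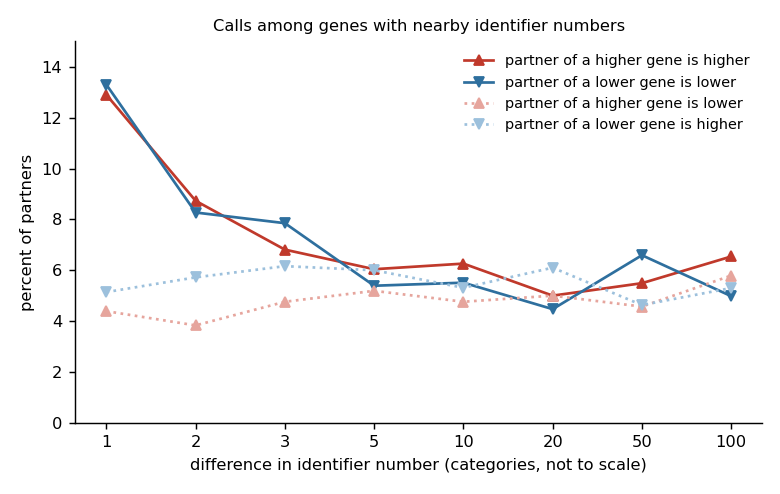
Percent of partner genes called in the same direction (solid lines) and in the opposite direction (dotted lines), by the difference in identifier number between a called gene and its partner (categories from 1 to 100). Same-direction shares start at 12.9% and 13.3% for consecutive numbers and lie at 6.04% and 5.39% at a distance of 5.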

How the data were processed

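Per the labels, RNA of whole gastrula embryos was sequenced, and the authors deposited a table of raw counts with 25729 gene models. Its 92 spike-in rows held 0 counts in all and were dropped. STAR 2.5.3a, cutadapt 1.8.1, Subread 1.6.2, featureCounts and DESeq2 1.6.0 appear in the submitters' processing notes, with no role stated. The annotation and strand setting of the counting are not given in the sources used here, and reads of antisense, overlapping or near-identical genes may be mixed. The authors' deposited normalized values (a rounded score), their log2 and fold (ratio) columns and their p-value columns, which compare translation with control, were not used. Columns without a sample numbered 0. The peak lists were not used.

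Genes were tested with edgeR 4.0.16 in R 4.3.3 on all 14 libraries, as 3 group means with 11 residual degrees of freedom, after filterByExpr (22109 genes kept) and TMM scaling. Tests were two-sided with Benjamini-Hochberg adjustment over all genes tested, called under 0.05. The standard error of a log2 fold change is its size over the square root of F, and intervals use the t quantile of the same fit. Log2 CPM used a prior count of 2. The fit was tested on simulated counts. Replicates are biological per the labels; replicate pairs differed beyond sampling noise (chi-square per degree of freedom 12.4 to 45.7), and each library counted as 1 replicate. Alternatives used DESeq2 1.42.0 and limma 3.58.1. The named genes followed a rule on fold and CPM difference, 2 identifiers per direction. The part, the rule, the lists and the tests were chosen with earlier results of these data known; the left-out pairs and the identifier distances were added on seeing the data.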

Additional observations from a re-analysis of the deposited data

Results flagged for a closer look

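Control library 1 stood apart from the other 3 controls in depth. Its gap to the nearest library in log10 total count, divided by the range of the group, was 0.863. It was the only set past the critical value among the 16 sets of 4 values examined (4 library measures and the CPM of 4 genes, in each of 2 groups); chance flags about 1 set in 20. At a common depth, that of the shallowest library, 2266 genes were called.

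The splice and translation morpholinos differed by the direct test for NVE13087, with a log2 difference, splice minus translation, of -1.13, and for NVE6251, with a log2 difference of -1.11. For NVE13087 the level was below control with both morpholinos, and for NVE6251 the fall passed the test with the splice morpholino. Both genes were chosen for a low level in these same splice libraries, which favours such a difference, so the direct tests are a description only.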

How the results depend on the processing

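Counts of calls stayed within 1.5 times their value with DESeq2 size factors, library size only, DESeq2, limma-voom, both other low-count filters, the 8 compared libraries alone, the library number as covariate, thinned depths and the libraries numbered up to 52970 (2215 to 3407 genes). The share of calls that were higher moved from 52.1% to 60.2% in the libraries numbered up to 52970 and to 54.7% with the library number as covariate. Counts are given as all, higher and lower. An adjusted p under 0.01 gave 990, 532 and 458, under 0.1 gave 3786, 1966 and 1820, and a 1.5-fold minimum change gave 306, 172 and 134. The libraries numbered above 52970 gave 0, 0 and 0 by edgeR (0 by limma-voom, 147 by DESeq2, and 1683 under 0.05 before adjustment), with 1 splice library left. Genes without overlap between the groups numbered 9469 in the earlier and 17103 in the later libraries, where fewer libraries make overlap rarer. Leaving out 1 library gave 1272 to 2862, 652 to 1471 and 620 to 1391 calls, and 3726 to 5468 genes without overlap. It moved the difference in genes detected between -68.8 and 24.9, which turned positive without splice library 4, and that in log10 total count between -0.287 and -0.0469 (exact permutation p = 0.029 without control library 2, 0.029 to 0.4 over all). The earlier libraries with 1 splice library kept, an alternative added after seeing the data, gave 1547 to 2736 genes, the lowest with splice library 2 (1547, with 525 lower). The direction of the 4 named genes was fixed by their choice among genes without overlap. Their calls were lost in the later libraries (edgeR adjusted p from 0.26 to 0.61), for NVE22695 at the 1.5-fold minimum, and for NVE23302 in the earlier libraries with splice library 2 alone (log2 fold change 2.08, edgeR adjusted p = 0.16, with 0.00027 to 0.37 over all alternatives). The causes of these changes were not tested. No paired analysis was possible because the replicate numbers follow accession order and pair no libraries. Depth limits the low genes: in the lowest abundance class 28.3% of the genes not called had an interval within 2-fold, against 96.7% in the highest.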
